A study of Rattus norvegicus with 12 samples.

Results

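The miR-26 family comprises short regulatory RNAs cut from the hairpins of miR-26a and miR-26b. Its members were taken as every row named miR-26a or miR-26b, with any arm. This gave 4 of the 641 mature miRNAs in the deposited table, namely rno-miR-26a-5p (mean 105195 rpm, reads per 1000000 of a library total), rno-miR-26b-5p (2657 rpm), rno-miR-26b-3p (3.13 rpm) and rno-miR-26a-3p (0.044 rpm). The rat prefix rno- is left out from here on. The first 3 passed the filter on low values described below, and miR-26a-3p did not. Small RNA was sequenced from aortas of female spontaneously hypertensive rats (SHR), an inbred strain with inherited high blood pressure. There were 6 saline-treated controls and 6 samples with the treatment label EWH, which the labels do not spell out. The title of the series names peptides derived from egg white and blood pressure, and the question put by the design is which miRNAs of the aorta differed with treatment. The sources used here give no age, dose or length of treatment. They do not say whether each sample is a separate animal, so the p-values reflect the spread of these samples, which may be technical.

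An miRNA is loaded into an Argonaute protein and pairs with target transcripts mainly through its seed, bases 2 to 8 from the 5′ end, which lowers their stability and translation. Members with the same seed can act on largely the same targets. The miR-26 hairpins lie in genes of the Ctdsp group, which encode phosphatases of the RNA polymerase II tail, and the family is known to restrain Ezh2, Smad1 and other growth and differentiation regulators. In vascular smooth muscle cells, miR-26a has been linked to the switch between contractile and proliferating states and to signalling by TGF-beta and Smad proteins.

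The mature sequences are printed to show what the members share, since members with one seed can be counted together. All 4 names matched RefSeq's rat table (build GRCr8), and the capitals mark the seed.
miR-26a-5p: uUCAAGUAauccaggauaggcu
miR-26b-5p: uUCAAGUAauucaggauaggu
miR-26b-3p: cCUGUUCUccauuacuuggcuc
miR-26a-3p: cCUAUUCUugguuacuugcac
The 5p arms carry the same seed, and no other of the 693 mature names in that table has it. Counted from 1 at the 5′ end of miR-26a-5p, miR-26b-5p differs from it by C11U and C21U, both outside the seed, and is 21 nt long against 22 nt. They are identical at 19 of 21 aligned bases. The 3p arms do not share a seed, since miR-26b-3p differs from miR-26a-3p within it by A4G, and each of these seeds occurs in no other name of the table. The sources used here do not say how reads with mismatches were assigned, so some reads of one 5p arm could have been counted for the other.

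The hairpins are printed to show where the arms lie, with the mature arms in capitals. The hairpin of miR-26a lies at chr8:127633048-127633137 on the plus strand of GRCr8, inside Ctdspl, and that of miR-26b at chr9:83425709-83425793 on the plus strand, inside Ctdsp1.
Mir26a: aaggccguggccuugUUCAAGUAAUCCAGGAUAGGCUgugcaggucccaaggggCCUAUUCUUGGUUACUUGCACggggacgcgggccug
Mir26b: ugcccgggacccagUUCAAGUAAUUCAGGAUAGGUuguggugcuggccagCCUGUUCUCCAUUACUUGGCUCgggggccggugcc
Neither overlaps another miRNA hairpin, and none lies within 50000 bases of either. RefSeq's assembly is not the rn6 build of the study, so these positions belong to the sequences only.

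The totals behind the rpm values were 23887799 to 24772944 reads, of which 76.4% to 80.6% fell in the table's miRNAs, called listed reads here. One read was worth 0.0404 to 0.0419 rpm. A value of 0 allows up to 3 reads, or 0.121 to 0.126 rpm, and such limits cover counting error only because no molecular identifiers are named for these reads. The smooth muscle markers miR-143-3p, miR-143-5p, miR-145-5p and miR-145-3p were all present, and miR-143-3p held 42.3% to 54.1% of the listed reads. The endothelial miR-126a arms summed to 3290 to 12305 rpm in control and 4264 to 6913 rpm in EWH. Of the other cell types, 4 tested markers of neurons and glia summed to 564 to 1344 rpm in control and 640 to 1545 rpm in EWH, most of it miR-128-3p (mean 727 rpm, log2 fold change −0.13). The other 3 of these 4 had a higher mean in EWH. They were miR-9a-5p (64.2 ± 21.8 rpm in control, 250 ± 175 rpm with EWH, SD, n = 6 each, log2 fold change 1.67), miR-338-3p (27.5 ± 12.7 and 90.7 ± 65.9 rpm, 1.47) and miR-9a-3p (1.02). Markers of epithelium and hepatocytes summed to 251 to 1709 rpm in control and 262 to 890.2 rpm in EWH, with lower means in EWH for 5 of 6. The exception was the most abundant, miR-122-5p (342 ± 365 rpm in control, 416 ± 275 rpm in EWH, log2 fold change 0.74). Controls were also uneven in miR-200b-3p (125 ± 196 rpm, 6.87 ± 2.83 rpm in EWH, SD, n = 6 each). Adipocyte markers summed to 86.1 to 1508 and 102 to 408 rpm, those of erythrocytes to 80.4 to 364 and 119 to 384 rpm, those of skeletal and cardiac muscle to 420.0 to 1361 and 709 to 1433 rpm, and those of leukocytes to 84.4 to 228 and 101 to 181 rpm. At an adjusted p under 0.05 limma called 0 of the markers, beside 0.0% of the 303 tested miRNAs. On recovered reads edgeR called 2 of 4 neural and 2 of 6 epithelial or hepatocyte markers, beside 13.2% of the 303. DESeq2 called 3 of 4 and 3 of 6 of these lists and 1 of 4 of skeletal and cardiac muscle, beside 20.8% of the 303. No marker in the table was at 0 in all libraries, and the part of other cells in the members' values was not tested. EWH 3 and EWH 4 lay apart along principal component 1 of the libraries, which took 46.3% of the variance (11.97 and 16.2). The controls lay at −7.94 to −0.58 and the other EWH libraries at −4.12 to 4.94, so this component also ran partly with group. The members' differences between groups are also given without EWH 3 and EWH 4, which removes the libraries farthest from the controls on it. The median log2 fold change of the 4 tested markers of neurons and glia was 1.24, and 0.73 without EWH 3 and EWH 4.

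Among the members, miR-26a-5p, the guide strand of its hairpin, was the most abundant. In control it ranged from 94642 to 118317 rpm with a median of 101771 rpm, and in EWH from 96069 to 120548 rpm with a median of 106122 rpm. The highest libraries were EWH 4, control 1 and EWH 3, the lowest was control 2, and the groups overlapped over most of their range. It was the second most abundant miRNA in each of the 12 libraries. In mean rpm it stood between miR-143-3p (389300 rpm), higher in 12 of 12 libraries, and miR-99a-5p (36693 rpm), lower in 12 of 12. Its reads numbered 2266570 to 2928410 per library, so counting error alone would give a coefficient of variation of 0.0625%, where 8.16% was measured.

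The paralogue miR-26b-5p, which carries the same seed, ranged from 2373 to 2926 rpm in control (median 2621 rpm) and from 2143 to 3038 rpm in EWH (median 2642 rpm). EWH 2 was the lowest library and EWH 5 and EWH 6 were the highest, so the EWH libraries reached past the controls on both sides. It was 26th in mean rpm, and its place among its neighbours was not fixed. MiR-1b, just above it in mean rpm, was higher in 6 libraries and lower in 6, and miR-191a-5p, just below, was lower in 9 and higher in 3.

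The passenger arm miR-26b-3p was rare but present throughout, at 2.60 to 4.05 rpm in control (median 3.29 rpm) and 2.22 to 3.67 rpm in EWH (median 3.19 rpm). These values rest on 55 to 97 reads per library. Its coefficient of variation was 17.4%, where counting error alone would give 11.5%. EWH 2 and EWH 3 lay below each control, and the other 4 EWH libraries lay among the controls.

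Reads of the other passenger arm, miR-26a-3p, were found in 4 of 12 libraries. Control 2 and control 4 had 2 reads each, EWH 1 had 5 and EWH 3 had 4, and the other 8 libraries had 0. Summed over a group this was 4 reads in control (exact Poisson 95% interval 1.09 to 10.2) and 9 in EWH (4.12 to 17.1), which covers counting error only. A difference was not detectable at this depth, and no fold is given because both group means lie under the value of 3 reads. In mean rpm it ranked 507th of 641.

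**Figure D1:**
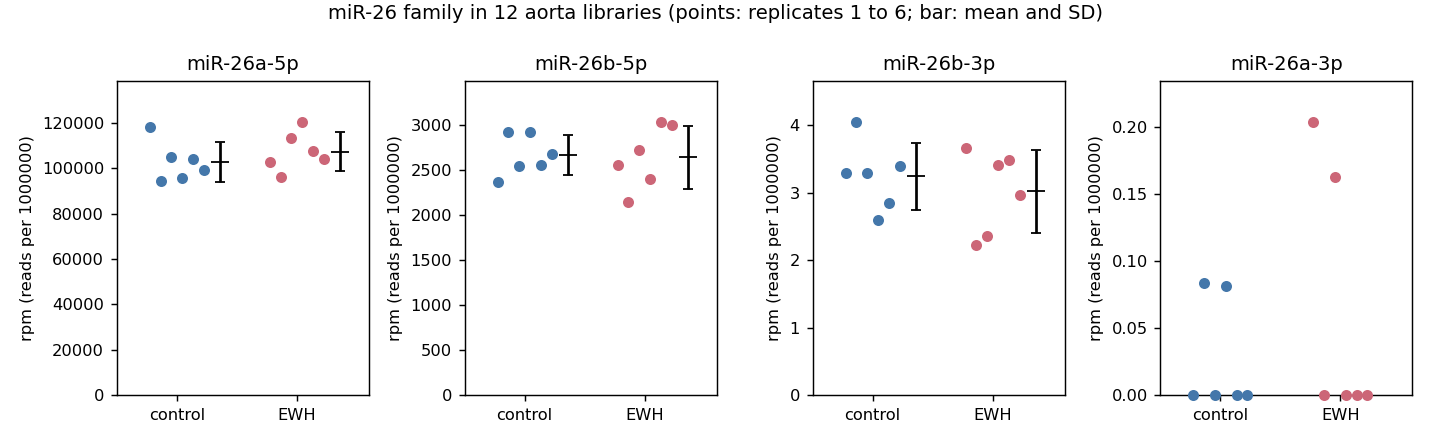
Values in rpm (linear axes from 0) of the 4 members in 6 control and 6 EWH libraries; points are libraries in replicate order and bars are the mean and SD (not drawn for miR-26a-3p, which has 0 reads in 8 of 12 libraries). For each of the 4 the groups overlap.

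The groups were compared on log2(rpm + 1) with limma, two-sided, over the 303 miRNAs that reached 1 rpm in at least 6 libraries, so fold changes are on that scale and understate the change of low miRNAs. MiR-26a-5p averaged 102896 ± 8690 rpm in the controls and 107494 ± 8599 rpm with EWH (SD, n = 6 each). Its log2 fold change was 0.06 (SE 0.07, 95% interval −0.09 to 0.21), or between 5.91% lower and 16.0% higher in EWH, with limma Benjamini-Hochberg adjusted p = 0.620. Without EWH 3 and 4 the log2 fold change was 0.00075. Scaled to the listed reads outside miR-143-3p it was −0.02, so no direction can be given.

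MiR-26b-5p averaged 2669 ± 221 rpm in the controls and 2644 ± 348 rpm with EWH (SD, n = 6 each). Its log2 fold change was −0.02 (SE 0.10, 95% interval −0.23 to 0.19; limma adjusted p = 0.915). MiR-26b-3p averaged 3.25 ± 0.50 and 3.02 ± 0.61 rpm (SD, n = 6 each), at −0.09 (SE 0.14, 95% interval −0.38 to 0.21; limma adjusted p = 0.734). Without EWH 3 and 4 they were −0.0017 and −0.06. On the scale of rpm + 1 these intervals leave room for differences of up to 14.8% in miR-26b-5p and 23.1% in miR-26b-3p. Both are in the lower direction. The added 1 rpm is a large part of the value of miR-26b-3p, so its limit in rpm itself is wider.

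None of the 3 tested members passed an adjusted p of 0.05 under limma, where 0.0% of the 303 tested miRNAs did. None lay at an unadjusted p under 0.05, where 70 of the 303 (23.1%) did. On recovered whole reads edgeR called 40 miRNAs (13.2%) and DESeq2 63 (20.8%), with no member among them. The groups did not overlap for 5 tested miRNAs (1.65%), none of them a member. The median absolute log2 fold change was 0.06 over the 3 tested members and 0.22 over all 303. The median SE was also smaller, at 0.10 against 0.19, and the comparison was not matched for abundance. In order of absolute log2 fold change, starting from the smallest, miR-26b-5p was 13th, miR-26a-5p 48th and miR-26b-3p 66th of 303.

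**Figure D2:**
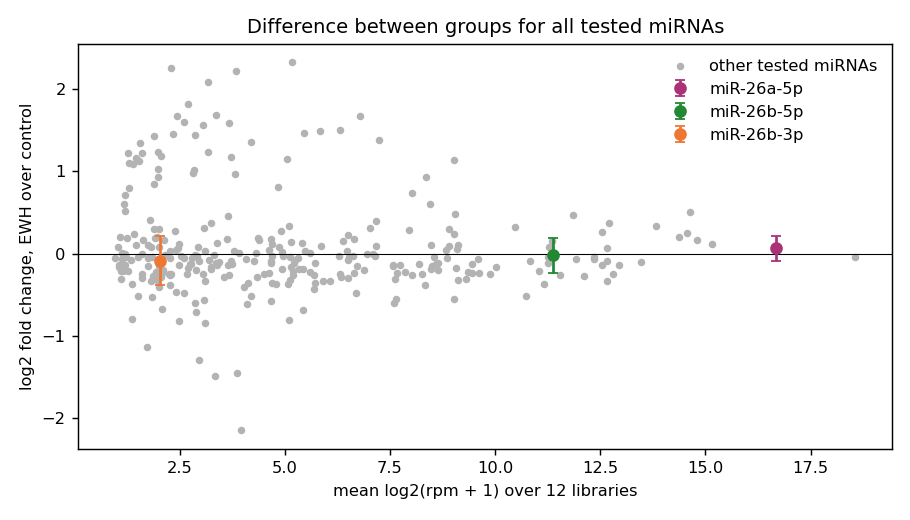
Log2 fold change of EWH over control (vertical axis) against mean log2(rpm + 1) over 12 libraries (horizontal axis) for the 303 tested miRNAs; coloured points are the 3 tested members with 95% intervals from limma, grey points the other miRNAs. The members lie at 0.06, −0.02 and −0.09, and each interval crosses 0.

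Since both 5p arms carry the seed UCAAGUA, they were also counted together. Their sum was 105565 ± 8484 rpm in the controls and 110138 ± 8664 rpm with EWH (SD, n = 6 each), of which miR-26b-5p supplied 2.55% ± 0.39 and 2.41% ± 0.32. Of the 641 listed miRNAs, 581 matched a RefSeq sequence, and these held 493 seeds. The seed of miR-26 ranked 3rd in summed rpm, after that of miR-143-3p (389300 rpm) and the let-7 seed (117505 rpm over 9 listed members). The let-7 sum was higher than the miR-26 sum in 9 of 12 libraries and lower in 3. Among the 60 unmatched names the most abundant was miR-99a-5p, so the rank of miR-26 does not turn on them. While the let-7 total was spread over its members, with let-7f-5p supplying 24.7% of it, miR-26a-5p supplied 97.5% of the miR-26 total.

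The level of miR-26a-5p was 39.0 ± 6.52 times that of miR-26b-5p in the controls and 41.2 ± 5.80 times with EWH (SD, n = 6 each), in rpm. Divided by the length of each mature sequence, the mean ratio over 12 libraries was 38.3 in place of 40.1. The ratio was lowest in control 2 (32.4) and control 4 (32.7) and highest in EWH 4 (50.2) and control 1 (49.9), so both ends of the range held a control. On the log2 scale the groups differed by 0.08 (SE 0.13), and the two-sided exact permutation test over 924 splits gave p = 0.513 (Benjamini-Hochberg adjusted p = 0.589 over 3 values of the family).

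The other 2 of those values were shares of the library. The family held 13.5% ± 1.27 of listed reads in the controls and 13.9% ± 1.19 with EWH (SD, n = 6 each), a difference of 0.38 percentage points (SE 0.71, exact permutation p = 0.589, adjusted p = 0.589). With miR-143-3p left out of the total, its share was 27.3% ± 0.90 in the controls and 26.9% ± 0.63 with EWH (SD, n = 6 each), a difference of −0.40 percentage points (SE 0.45, exact permutation p = 0.405, adjusted p = 0.589). The sign of the difference turned between both ways of counting, and both differences were smaller than their SE.

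The arms of miR-26a were used more unequally than those of any other hairpin, by the ratio of summed reads among 222 hairpins with both arms listed. There were 30750861 reads of the 5p arm and 13 of the 3p arm over the 12 libraries, a ratio of 2365451 (1383280 to 4442513 from the exact Poisson 95% interval of the 3p reads, for counting error only). The next hairpin, miR-100, had a ratio of 383039 with 4 minor-arm reads and an interval of 149601 to 1405822, which just overlaps that of miR-26a. The median over all 222 was 28.6. In the 8 libraries with no 3p read of miR-26a, the 5p arm was at least 793308-fold higher, against 3 reads per library. RefSeq's table holds 1 hairpin for miR-26a, and 5p reads from any further copy with the same mature sequence would be counted here too.

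The hairpin of miR-26b ranked 32nd of 222, with 776006 reads of the 5p arm and 915 of the 3p arm, a ratio of 848 (795 to 906). Per library its 5p arm was 698 to 1155 times its 3p arm, at 839 ± 154 in the controls and 900.2 ± 180 with EWH (SD, n = 6 each). The difference in log2 arm ratio between the groups was 0.07 (SE 0.13, 95% interval −0.20 to 0.33), with limma Benjamini-Hochberg adjusted p = 0.867 over 67 hairpins with both arms tested. Among those 67 hairpins limma called 0.0% at an adjusted p under 0.05 and 13 (19.4%) at an unadjusted p under 0.05, and miR-26b was not one of them. For miR-26a the log2 arm ratio, with 1 rpm added to each arm, was 16.6 ± 0.17 in both groups (SD, n = 6 each), and the two-sided exact permutation test gave p = 0.846. That ratio mostly follows the 5p arm, since the 3p arm lay under 1 rpm in all 12 libraries.

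**Figure D3:**
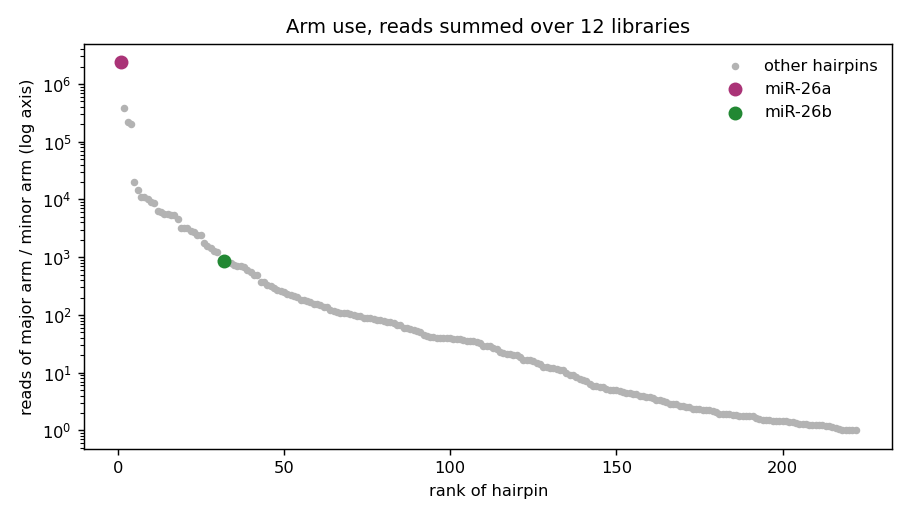
Ratio of reads of the more abundant arm to the less abundant arm (log axis), reads summed over 12 libraries, for 222 hairpins in rank order; coloured points are miR-26a and miR-26b, grey points the other hairpins. MiR-26a stands at rank 1 and miR-26b at rank 32.

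The spread of miR-26a-5p between libraries of a group was small. Its pooled within-group SD of log2(rpm + 1) was 0.12, the 6th lowest of the 303 tested miRNAs, whose median was 0.33, and the 3rd lowest of the 34 that averaged at least 1000 rpm. With values scaled to the listed reads outside miR-143-3p the SD of miR-26a-5p was 0.04, the lowest of 302, where the median was 0.35. After median-of-ratios scaling it was 0.12, the 3rd lowest of 303. MiR-26a-5p makes up 26.4% of the listed reads outside miR-143-3p and is thus part of its own reference there. Per 100 reads outside both it ranged from 33.7 (EWH 6) to 39.4 (control 1), a coefficient of variation of 4.15%.

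The other members were less steady. The pooled SD was 0.16 for miR-26b-5p (29th lowest of 303) and 0.20 for miR-26b-3p (60th lowest). Outside miR-143-3p these became 0.19 (43rd of 302) and 0.25 (89th of 302), so leaving out miR-143-3p narrowed the spread of miR-26a-5p and widened that of both other tested members. After median-of-ratios scaling they were 0.19 (50th lowest of 303) and 0.17 (28th lowest), so the order of these 2 members turned on that scale.

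**Figure D4:**
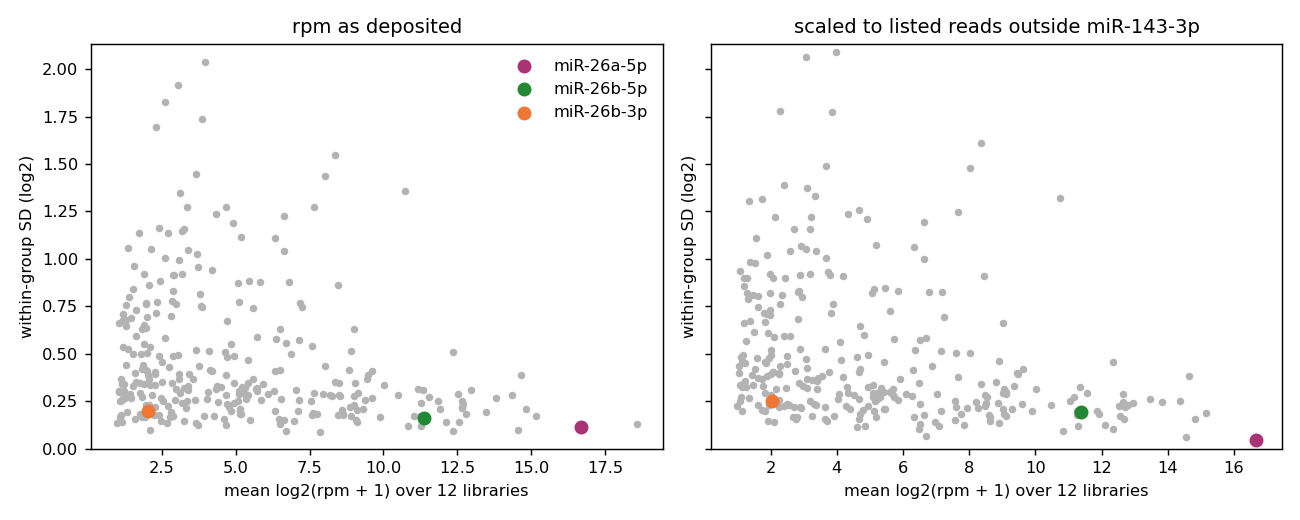
Pooled within-group SD of log2 values (vertical axis) against mean log2(rpm + 1) over 12 libraries (horizontal axis), on deposited values (left, 303 miRNAs) and on values scaled to the listed reads outside miR-143-3p (right, 302 miRNAs); coloured points are the 3 tested members. MiR-26a-5p lies at 0.12 on the left and at 0.04, the lowest point, on the right.

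Across libraries miR-26a-5p was low where miR-143-3p, the contractile smooth muscle miRNA, was high. Over the 12 libraries Pearson's r of log2(rpm + 1) was −0.929 (permutation p = 6.0e-05, adjusted p = 0.00036 over 6 pairs) and Spearman's rho was −0.888 (permutation p = 0.00044, adjusted p = 0.0026). Pearson's r was −0.970 within control and −0.904 within EWH (exact permutation p = 0.0083 and 0.0139, n = 6 each, not adjusted over the 12 within-group values). It was −0.839 without control 1 and EWH 4, the libraries farthest from the median of miR-26a-5p. Without EWH 3 and EWH 4 it was −0.909. Both are parts of one total, of which they held 57.8% to 66.2% of listed reads together. After median-of-ratios scaling r was 0.376 (permutation p = 0.228), and for miR-26a-5p per read outside both miRNAs it was −0.336 (permutation p = 0.301). The inverse relation thus holds for shares of a library and was not found past the threshold on the other scales.

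The 5p paralogues did not move together over the 12 libraries. Pearson's r between miR-26a-5p and miR-26b-5p was −0.231 (permutation p = 0.467, adjusted p = 0.825) and Spearman's rho was −0.217 (permutation p = 0.5003, adjusted p = 1.0). Without control 1 and EWH 4 r was 0.177. Within control r was −0.956 (exact permutation p = 0.0056, n = 6) and within EWH 0.233 (exact permutation p = 0.658, n = 6). These p-values are not adjusted over the within-group values. Both r are on rpm that share the library total and were not computed on another scale. Whether the groups differ in this was not tested. After median-of-ratios scaling the pooled r was 0.085. Between miR-26b-5p and miR-143-3p r was 0.111 over the 12 libraries (permutation p = 0.722, adjusted p = 0.825), and 0.677 after median-of-ratios scaling. That pair had r = 0.911 within control and −0.318 within EWH (exact permutation p = 0.0167 and 0.525, n = 6 each, not adjusted). The arms of miR-26b, cut from the same hairpin, had r = 0.290 (permutation p = 0.357, adjusted p = 0.825), rho = 0.175 (permutation p = 0.582, adjusted p = 1.0) and r = −0.202 without EWH 2 and EWH 5.

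**Figure D5:**
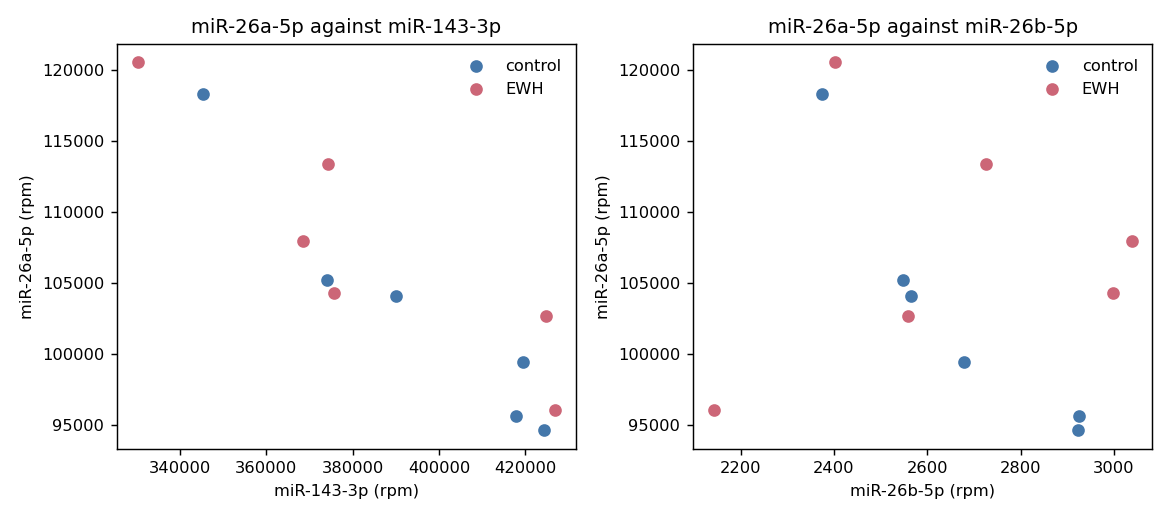
MiR-26a-5p (vertical axes, not from 0) against miR-143-3p (left) and miR-26b-5p (right) in rpm; each point is a library, coloured by group. The left points fall along a descending line (r = −0.929), while on the right (r = −0.231) the control points descend and the EWH points do not.

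The tested miRNAs of at least 10 rpm whose log2 values were most like each member over 12 libraries are given as a description, with Pearson's r on values that share the library total. For miR-26a-5p they were miR-195-5p, of the miR-15/16 seed group known to slow the cell cycle (r = 0.875), miR-351-5p (0.858) and miR-139-5p (0.834), among 181 candidates. MiR-143-3p was the last of the 181. For miR-26b-5p they were miR-181b-5p (0.793), miR-23a-3p (0.735) and miR-185-5p (0.732). For miR-26b-3p they were the collagen-repressing miR-29b-3p (0.903), miR-339-5p (0.820) and miR-222-3p (0.754). None of these 9 was among the most alike of more than 1 tested member. After median-of-ratios scaling the 9 values ran from 0.430 to 0.797.

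The neighbouring regulators of smooth muscle state and of TGF-beta and Smad signalling were read from lists of 20 miRNAs each. In the list of smooth muscle phenotype, 0 of 17 tested members passed limma at an adjusted p of 0.05 in either direction, with a median log2 fold change of −0.13 against −0.06 over all tested miRNAs. Its most abundant members were miR-143-3p (log2 fold change −0.05, SE 0.07), miR-10a-5p (0.20, SE 0.15), the injury-responsive miR-21-5p (−0.33, SE 0.14) and miR-125b-5p (−0.09, SE 0.12). In the TGF-beta and Smad list 0 of 19 passed in either direction. All 19 had lower means in EWH on the log2 scale, beside 182 of the 303 tested miRNAs, with a median of −0.22. The count was 17 of 19 after quantile normalization, 18 without control 1 and 17 without EWH 2. The 19 are not separate observations, since the list holds several members of the miR-29 and miR-30 families. It also shares miR-21-5p, miR-24-3p, miR-145-5p and miR-133a-3p with the first list. Both lists were chosen with earlier results of these data known. MiR-27b-3p read −0.10 (SE 0.11), miR-24-3p −0.13 (SE 0.09) and miR-30d-5p −0.07 (SE 0.12). On recovered reads edgeR called 13.2% of the 303 tested miRNAs and 1 of 17 in the first list, miR-204-5p, higher in EWH at a log2 fold change of 1.54 (Benjamini-Hochberg adjusted p = 0.031), and 0 of 19 in the second. DESeq2 called 20.8% of all tested miRNAs, 2 of 17 and 2 of 19 at an adjusted p under 0.05, miR-204-5p and the muscle miRNA miR-1-3p higher, and miR-19b-3p and miR-29a-3p lower in EWH (named after their values were seen).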

How the data were processed

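Small RNA (15-35 nt inserts) of 12 aorta samples was sequenced. The authors deposited 1 table in RPM (reads per 1000000): it is named for TPM, but each value is a whole number of reads over a library total, with no length term. Whole reads were recovered for 100.0% of 6074 values (tolerance 0.01 read). Per the submitters' processing notes the build was rn6; the sources used here do not give aligner, counter, annotation or strand. Columns were mapped by sample description.

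MiRNAs at 1 rpm or more in at least 6 libraries (303) were tested on log2(rpm + 1) with limma 3.58.1 (trend) in R 4.3.3 with Benjamini-Hochberg adjustment. Arm ratios used limma over hairpins, or an exact permutation test where an arm failed the filter; the miR-26b ratio was added after its 3p row was seen. Shares and ratios used exact permutation (SciPy 1.17.1). Named besides members were the 3 most alike, the neighbours in abundance and the leading list members; matches of miR-26a-3p, at 0 in 8 libraries, are not given. Members and lists were chosen with earlier results of these data known. Alternatives were other filters, pseudocounts and scalings, edgeR 4.0.16 and DESeq2 1.42.0 on recovered reads, a replicate block, and libraries left out (EWH 3 and 4 together after seeing the data). Procedures were tested on simulated data. No pair of replicates agreed within sampling noise (30 pairs, chi-square per degree of freedom 133 to 3573).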

Additional observations from a re-analysis of the deposited data

How the results depend on the processing

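No alternative took a member, an arm ratio or a share past an adjusted p of 0.05 (147 values, lowest 0.302), and signs turned in 16 of them. For miR-26a-5p the log2 fold change was −0.019 when scaled to reads outside miR-143-3p, 0.099 after median-of-ratios scaling, 0.107 by edgeR, 0.102 by DESeq2 and 0.03 to 0.10 with a library left out. Quantile normalization sets miR-26a-5p to the same value in each library, since its rank is the same in each. That setting cannot show a difference for miR-26a-5p and is not counted. For miR-26b-5p it was 0.016 after median-of-ratios scaling, 0.016 after quantile normalization, 0.027 by edgeR, 0.022 by DESeq2, −0.10 outside miR-143-3p and −0.062 to 0.039 with a library left out. For miR-26b-3p it was −0.23 after quantile normalization, −0.17 outside miR-143-3p, −0.041 at a pseudocount of 5 and −0.13 to −0.02 with a library left out, and the filter at 10 rpm removed it. The difference in the log2 arm ratio of miR-26a was −0.15 at a pseudocount of 0.1, −0.028 without EWH 3 and 4 together and −0.029 to 0.070 with a library left out, and that of miR-26b 0.0055 to 0.14. The difference in the family's share of listed reads was −0.40 percentage points outside miR-143-3p, −0.22 without EWH 3 and 4, and 0.0048 to 0.83 with a library left out. Outside miR-143-3p the latter range was −0.63 to −0.095, and for the log2 ratio of the 5p paralogues 0.024 to 0.16. The causes were not tested. Calls over all tested miRNAs, 0 under limma, were 8 after quantile normalization, 40 by edgeR, 63 by DESeq2, 1 without EWH 3 and 4 together, and 0 to 24 with a library left out (24 without EWH 2, 1 without EWH 4), with no member among them.

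Replicate numbers are shared by the groups, and the labels do not say whether same numbers mark pairs. Deviations from the group mean correlated between same-numbered libraries at −0.504 to 0.313, positive in 3 of 6 pairs. With 1 library of each group per number, these values cannot decide whether such libraries share a batch. With the replicate number as a block, log2 fold changes were 0.06 for miR-26a-5p (adjusted p = 0.647), −0.02 for miR-26b-5p (0.940) and −0.09 for miR-26b-3p (0.813), limma with Benjamini-Hochberg adjustment, and 0 miRNAs were called. Depth limits miR-26a-3p and miR-26b-3p only.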
